A study of Mus musculus with 8 samples.

Results

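The genes described here are 39 markers of T lymphocytes and natural killer (NK) cells, measured in Gr1+ spleen cells. They were chosen by name as a list of T lineage, naive and memory, and cytotoxic genes, with earlier results of these data known. The brightest probe of each gene was used. Of the 39 genes, 37 had a probe annotated to them among the 16593 genes on the arrays, and no probe was named for Lck or Tcf7. The probes of 30 genes rose above background on at least 2 arrays and were tested. The other 7 (Skap1, Cd4, Cd8a, Ms4a4b, Gzma, Gzmb and Ncr1) lay near background throughout.

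The arrays were Illumina MouseRef-8 v2 bead arrays, hybridised with RNA of Gr1+ cells, which were taken by magnetic sorting out of spleens pooled from C57BL/6 females aged 6 to 8 weeks. The PBS group (2 arrays, numbered 1 and 3) received PBS in place of both agents. The LPS group (3 arrays) received lipopolysaccharide, a bacterial cell wall component that causes sepsis-like inflammation, into the peritoneum and then PBS. The third group (3 arrays, LPS followed by HY209) received LPS and, 30 min later, an intravenous dose of HY209, which is sodium taurodeoxycholate, a bile salt. Spleens were taken at 48 h in all groups, and no group received HY209 alone. The labels give pools of 10 to 15 spleens in one text and 30 to 40 in another, and they do not say that separate mice lay behind each array, so the p-values measure only the spread between arrays, which may be technical.

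T cells recognise antigen through a receptor whose signal is carried into the cell by the CD3 chains, the kinases Lck and Zap70 and the adaptor Lat. NK cells and cytotoxic T cells kill targets with perforin and granzymes and share several lectin-like receptors. In spleen both lie mainly in the white pulp and the blood-filled red pulp beside B cells, macrophages and granulocytes. The Gr1 antibody binds Ly6G of neutrophils and also Ly6C, which some memory CD8 T cells carry, and mature NK cells carry CD11b.

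All arrays had the lowest intensity of 108.9, the median of 169.7 and the highest of 66399, because the deposited values are quantile normalised. On each array, 50.6% of the probes lay above 168.8, the upper 5% bound of background. The labels give over 95% of the sorted cells as CD11b+. The neutrophil genes S100a8 (58140 to 62809) and S100a9 (34768 to 46238) stood near the top of the scale in every group, and Itgam, which encodes CD11b, stood at 505.6 and 565 in PBS and at 2246 to 3129 in both LPS groups. Of the targets of the Gr1 antibody, Ly6g had no probe named for it, so it was not measured. Ly6c1, a gene of Ly6C, read 8957 and 10216 in PBS and 15059 to 16536 in both LPS groups (0.67 ± 0.09 after LPS). Signal of T and NK cell genes was also present on all arrays of this sort. In bulk RNA, fewer cells of a type and less RNA per cell cannot be told apart.

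The promoter sequences below are shown because the 3 CD3 genes lie close together on chromosome 9 and all fell, Bcl11b and Prf1 stand for the transcription factors and the killing genes that fell, and Ctla4 was the gene that rose. Each is the stretch of 250 bases before the RefSeq start site (GRCm38.p6), 5′ to 3′. Capitals mark matches, on either strand, to letters that factors of the ETS family (AGGAAG), of the RUNX family (TGNGGT), of the GATA family (AGATAA) and of the TCF and LEF family (CTTTGA) are known to bind. No matches of different motifs overlap in these windows.
Cd3g (chr9:44980432-44980681, minus strand): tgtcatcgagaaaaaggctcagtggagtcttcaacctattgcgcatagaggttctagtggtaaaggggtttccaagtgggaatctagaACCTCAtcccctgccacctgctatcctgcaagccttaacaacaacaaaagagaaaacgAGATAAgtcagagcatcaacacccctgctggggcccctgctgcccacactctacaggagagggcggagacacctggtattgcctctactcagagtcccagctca
Cd3d (chr9:44981536-44981785, plus strand): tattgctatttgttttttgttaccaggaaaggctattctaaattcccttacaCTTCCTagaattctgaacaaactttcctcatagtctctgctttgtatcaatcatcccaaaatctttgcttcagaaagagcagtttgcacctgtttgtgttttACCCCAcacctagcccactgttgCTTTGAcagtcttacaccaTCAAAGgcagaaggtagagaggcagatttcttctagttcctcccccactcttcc
Cd3e (chr9:45009612-45009861, minus strand): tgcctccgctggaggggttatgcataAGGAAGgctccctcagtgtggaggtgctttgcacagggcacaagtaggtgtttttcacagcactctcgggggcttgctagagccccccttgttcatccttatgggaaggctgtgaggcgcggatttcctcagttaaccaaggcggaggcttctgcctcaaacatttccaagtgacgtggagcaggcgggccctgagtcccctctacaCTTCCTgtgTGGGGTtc
Bcl11b (chr12:108003415-108003664, minus strand): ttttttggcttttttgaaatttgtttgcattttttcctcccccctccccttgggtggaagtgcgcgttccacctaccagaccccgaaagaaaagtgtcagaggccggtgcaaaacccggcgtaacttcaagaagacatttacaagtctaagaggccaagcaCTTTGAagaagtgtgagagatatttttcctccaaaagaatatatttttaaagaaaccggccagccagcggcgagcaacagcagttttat
Prf1 (chr10:61297586-61297835, plus strand): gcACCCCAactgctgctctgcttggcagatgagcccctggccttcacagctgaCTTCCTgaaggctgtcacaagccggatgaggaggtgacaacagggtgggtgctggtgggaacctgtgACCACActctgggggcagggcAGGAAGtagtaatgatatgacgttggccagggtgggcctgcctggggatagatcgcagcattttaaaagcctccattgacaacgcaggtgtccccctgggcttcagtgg
Ctla4 (chr1:60908775-60909024, plus strand): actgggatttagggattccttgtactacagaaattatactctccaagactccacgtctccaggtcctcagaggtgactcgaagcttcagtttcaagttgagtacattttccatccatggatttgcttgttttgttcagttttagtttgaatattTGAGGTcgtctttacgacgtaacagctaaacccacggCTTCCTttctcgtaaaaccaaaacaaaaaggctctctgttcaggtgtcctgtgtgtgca

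The promoter table held a sequence for 17 of the 27 genes that fell after LPS. The ETS letters AGGAAG were present in 9 of these 17 windows (52.9%), against 29.2% of the first listed windows of all 27025 genes in the table. The loose RUNX letters, with any base at N, were in 47.1% against 39.9%. The TCF and LEF letters were in 17.6% against 14%, and the GATA letters in 1 window (5.9%) against 10.3%. These are counts of letters and show no binding. The window of Cd3e held the ETS letters 2 times, that of Prf1 2 times and that of Ctla4, the gene that rose, 1 time.

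The first comparison, LPS against PBS, asks how endotoxin changed these transcripts in the Gr1+ fraction. After LPS, 27 of the 30 tested genes fell, 1 rose and 2 did not pass the test (limma, Benjamini-Hochberg adjusted p under 0.05 over all 10219 genes tested). Over all genes, 30.2% fell and 25.7% rose. As the list was chosen with earlier results known, its shares beside those of all genes are a description and not a test. The median log2 change of the 30 genes was -1.16, and that of all genes tested was 0.00. On 28 genes every LPS array lay below both PBS arrays, which held for 37.4% of all genes, and on 1 gene every LPS array lay above them (33.8% of all genes). Eomes passed the filter on dim probes through the PBS arrays alone, so its fall is fixed in part by that filter. Standard errors of the fit follow the log2 changes after ±, intensities are the deposited values, and fold changes are taken after background correction, so a fold differs from the ratio of the intensities beside it.

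**Figure D1:**
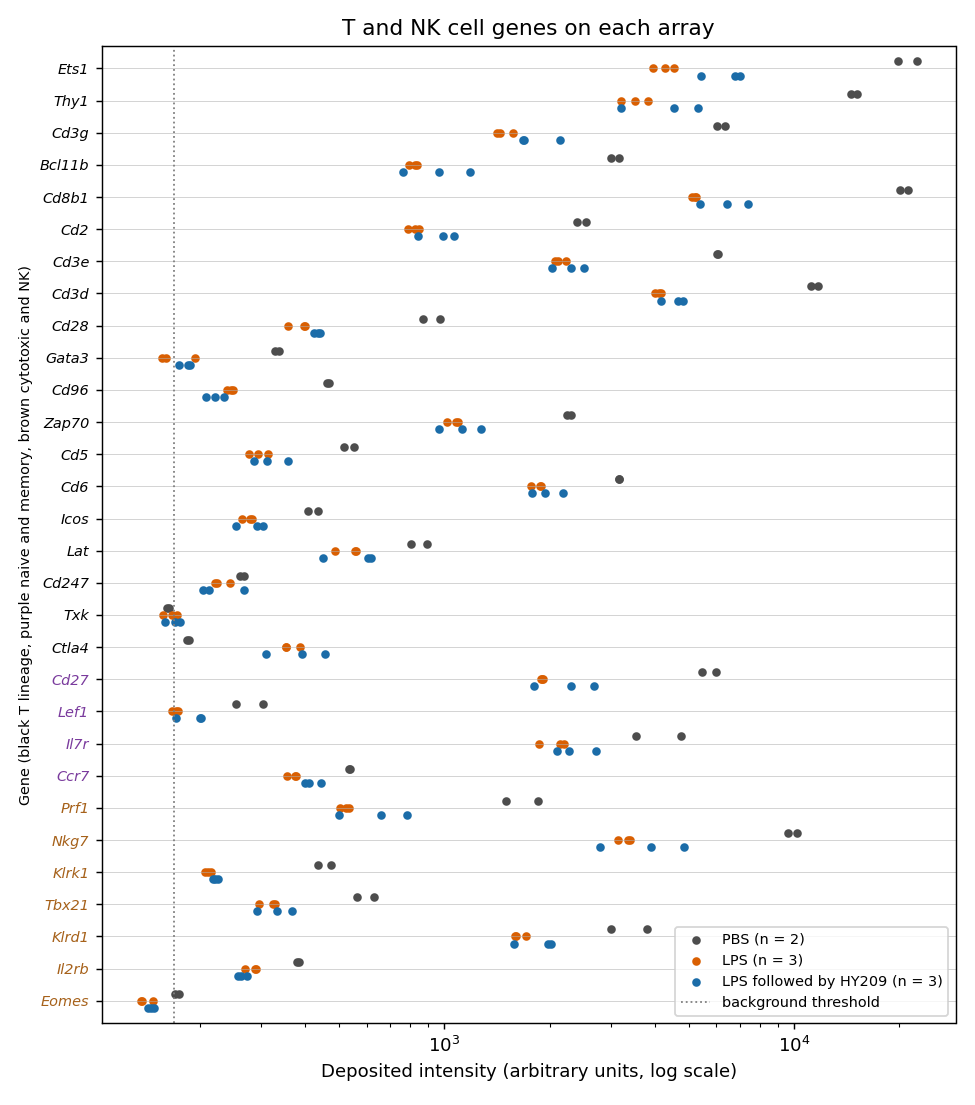
Deposited intensity (x axis, arbitrary units, log scale) of the 30 tested genes (y axis) on each of the 8 arrays, 1 point per array, coloured by group, with the background threshold of 168.8 dotted. For 28 genes the LPS points lie left of both PBS points, Ctla4 lies to the right, and levels of different genes cannot be compared because probes differ in brightness.

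All 3 CD3 chains of the T cell receptor fell after LPS. Cd3d, the delta chain of CD3 (probe ILMN_2697415), read 11181 and 11716 on the PBS arrays, 4114, 4005 and 4157 on the LPS arrays and 4816, 4162 and 4661 on the arrays with HY209. Cd3e, the epsilon chain, read 6010 and 6077 in PBS, 2227, 2121 and 2073 after LPS and 2503, 2030 and 2311 with HY209. Cd3g, the gamma chain, read 6029 and 6330 in PBS, 1447, 1577 and 1419 after LPS and 2141, 1682 and 1686 with HY209. In each of the 3 genes both PBS arrays stood far above all 6 others. Cd3d fell 2.83-fold after LPS (-1.50 ± 0.09, adjusted p = 7e-08), Cd3e changed by -1.53 ± 0.10 and Cd3g by -2.11 ± 0.12.

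Among the other signalling genes of the receptor, Zap70 and Lat fell, and Cd247 and Txk did not pass the test. Zap70, the kinase recruited to the phosphorylated CD3 chains, read 2305 and 2242 in PBS and 1017 to 1096 after LPS (-1.15 ± 0.12). Lat, the membrane adaptor phosphorylated by Zap70, changed by -0.75 ± 0.15 (adjusted p = 0.0011). Cd247, the zeta chain, read 261 and 268 in PBS and 221 to 243 after LPS with its brightest probe and did not pass the test (-0.28 ± 0.14, adjusted p = 0.12). Txk, a Tec family kinase, lay at 157 to 175 on all arrays, at the edge of background, and did not pass the test either (adjusted p = 0.77).

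Cd247 is the gene for which the choice of probe decided the call. Its dimmer probe ILMN_1253828 read 247 and 292 in PBS, 172, 172 and 158 after LPS and 198, 197 and 203 with HY209. That probe changed by -1.02 ± 0.11 after LPS (adjusted p = 1.3e-05) and by 0.41 ± 0.10 with HY209 against LPS (adjusted p = 0.035), and these 2 probe values are adjusted over all probes tested. The remaining probe of the gene changed by -0.39 ± 0.10 after LPS. With the mean over the gene's probes in place of the brightest probe, Cd247 passed the test after LPS at -0.56 (adjusted p = 0.00043).

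**Figure D2:**
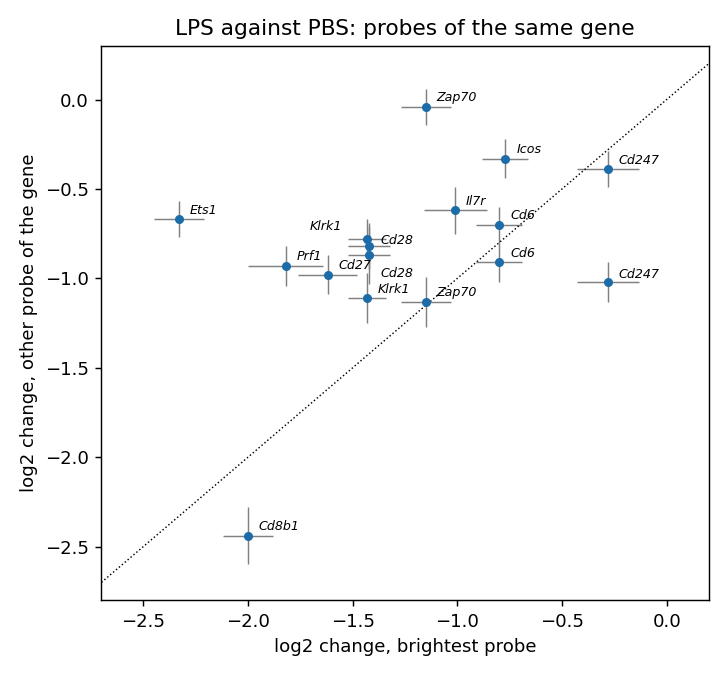
Log2 change of LPS against PBS for the 16 further probes of 11 genes (y axis) against that of the brightest probe of the same gene (x axis), with standard errors as bars and equality dotted. All 16 lie below 0 like the brightest probe, most of them with a smaller change, and probes of Cd247, Cd6 and Cd8b1 with a larger one.

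Of 16 further probes that passed the filter, belonging to 11 of the genes, all 16 changed in the direction of the brightest probe after LPS, and 15 of them passed the test. The exception was a probe of Zap70 near background (ILMN_1223542, -0.04 ± 0.10). A dimmer probe of Ets1 (ILMN_2770739) passed the filter through the PBS arrays alone, so its fall is fixed in part by that filter. With HY209 against LPS, 11 of the 16 further probes changed in the direction of the brightest one, 1 passed the test in that direction (the dimmer Ets1 probe, below background in both groups) and 1 in the opposite direction (Cd247). Cd8b1, the beta chain of the CD8 coreceptor, fell with both probes, from 20048 and 21155 to 5095 to 5260 with the brighter (-2.00 ± 0.12) and by -2.44 ± 0.16 with the dimmer. The probe of its partner Cd8a read 122 to 144.5 on every array, below the background threshold, so that probe gave no measure of the gene. The probe of Cd4 exceeded the threshold on 1 PBS array only, at 177.

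Surface receptors of T cells fell in all 6 tested cases. Thy1, a surface glycoprotein that marks mouse T cells, read 14571 and 15174 in PBS, 3510, 3202 and 3836 after LPS and 5316, 3193 and 4553 with HY209. It fell 4.30-fold after LPS (-2.11 ± 0.17, adjusted p = 7.9e-07). Cd2, an adhesion receptor of T and NK cells, changed by -1.67 ± 0.11, Cd96, a receptor for nectins, by -1.17 ± 0.10, and the scavenger receptor family members Cd5 and Cd6 by -1.05 ± 0.12 and -0.80 ± 0.10. Thus the changes of these tested receptors ranged from -2.11 to -0.80.

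The 3 costimulation genes divided. Cd28, which delivers the second signal for T cell activation, read 867 and 971 in PBS and 358 to 400.5 after LPS (-1.42 ± 0.10), and its relative Icos changed by -0.77 ± 0.11. Ctla4, the inhibitory receptor that competes with Cd28 for its ligands and is known from regulatory and activated T cells, read 184 and 186 in PBS, 353, 353 and 386 after LPS and 458, 308 and 393 with HY209. Every LPS array lay above both PBS arrays, where the probe was just above background. Ctla4 rose 2.52-fold after LPS (1.33 ± 0.16, adjusted p = 1.9e-05) and was also higher with HY209 than in PBS (1.41 ± 0.16). It was measured with 1 probe.

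The 3 tested transcription factors of the T lineage had the lowest median change among the groups of roles, at -2.00. Ets1, a factor of T, B and NK cells and of endothelium, read 19825 and 22431 in PBS, 4290, 4538 and 3957 after LPS and 6761, 7005 and 5439 with HY209. It fell 5.02-fold after LPS (-2.33 ± 0.12, adjusted p = 1.7e-08), the largest change among the 30 genes. Bcl11b, which holds T cells to their lineage, read 2993 and 3164 in PBS, 827, 834 and 795 after LPS and 1185, 760 and 964 with HY209 (-2.00 ± 0.16 after LPS). Gata3, a factor of helper T cells, came down to background on 2 of the 3 LPS arrays (-1.39 ± 0.14).

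All 4 tested genes of naive and memory T cells fell, with a median log2 change of -1.02. Il7r, the receptor for the survival cytokine interleukin 7, read 3529 and 4748 in PBS, 2194, 1870 and 2149 after LPS and 2271, 2713 and 2106 with HY209 (-1.01 ± 0.15 after LPS). Its PBS arrays lay farther apart than those of most other genes here. Cd27, a TNF receptor family member of naive and memory cells, changed by -1.62 ± 0.14, Lef1, a Wnt pathway factor, by -1.03 ± 0.13 and Ccr7, the lymph node homing receptor, by -0.64 ± 0.09. The Lef1 probe lay within a few units of the background threshold after LPS.

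All 7 tested genes of cytotoxic and NK cells fell as well, with a median of -1.09. Prf1, which encodes the pore protein perforin, read 1852 and 1505 in PBS, 505, 525 and 536 after LPS and 783, 499 and 659 with HY209. It fell 3.53-fold after LPS (-1.82 ± 0.17, adjusted p = 2.6e-06). Nkg7, a granule membrane protein, changed by -1.61 ± 0.18, Klrk1, which encodes the activating receptor NKG2D, by -1.43 ± 0.09, and Klrd1, which encodes the shared lectin chain CD94, by -1.08 ± 0.13. Tbx21, the factor T-bet of NK and type 1 helper cells, changed by -1.09 ± 0.13, and Il2rb, the receptor chain for interleukins 2 and 15, by -0.55 ± 0.09. Eomes, a relative of Tbx21 counted among the 7, read 170 and 174 in PBS and 136 to 147 after LPS, below the threshold. Only a bound of at least 1.03-fold lower can therefore be given for it on the corrected scale. Its adjusted p of 0.00053 in limma tests a difference between values near background and not that bound, and its fall is fixed in part by the filter. The probes of the granzymes Gzma and Gzmb and of the NK receptor Ncr1 read 130 to 169 on all arrays.

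T lineage, naive and memory, and cytotoxic genes thus had medians of -1.39, -1.02 and -1.09 after LPS. The ranges of the 3 groups overlapped, from -2.33 to 1.33, from -1.62 to -0.64 and from -1.82 to -0.53, and the difference between them was not tested.

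**Figure D3:**
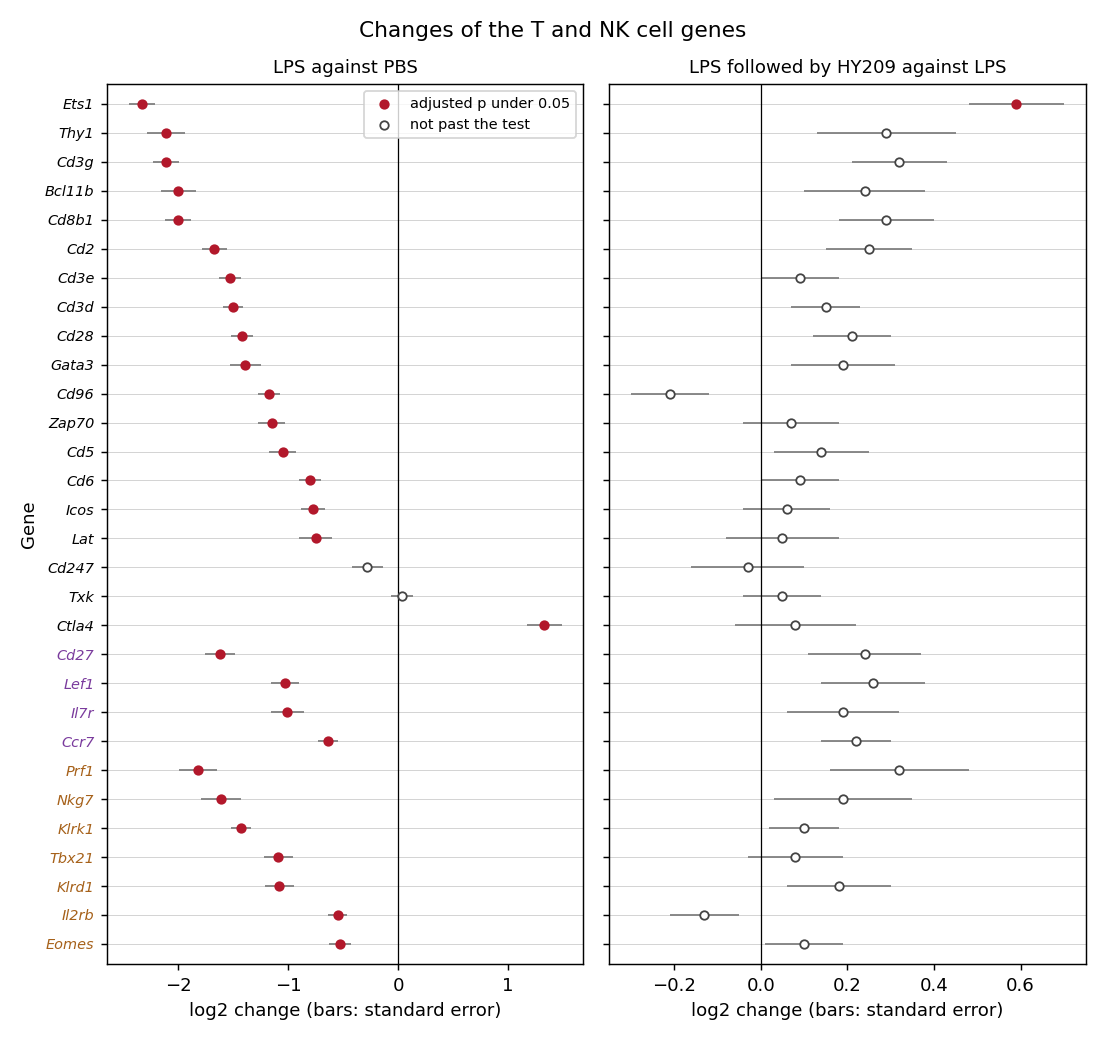
Log2 change with its standard error (x axes) of the 30 tested genes (y axis) for LPS against PBS on the left and for LPS followed by HY209 against LPS on the right, filled where the adjusted p was under 0.05, with gene names in black for the T lineage, purple for naive and memory and brown for cytotoxic and NK genes. On the left 27 genes lie below 0 past the test and Ctla4 above, and on the right Ets1 alone passed, on an x axis of its own scale.

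Further genes of these pathways, from lists that held none of the 39 genes, moved in both directions after LPS. Of 24 tested genes of T cell receptor signalling, 10 fell and 6 rose, with a median log2 change of -0.20, where 30.2% of all genes fell and 25.7% rose, so the share that rose was near that of all genes. Rasgrp1, the Ras activator of T cells, changed by -1.90 ± 0.10, Prkcq, a protein kinase C of T cells, by -1.66 ± 0.10, the receptor adaptor Trat1 by -1.40 ± 0.11 and the kinase Fyn by -1.24 ± 0.19. The rises were led by Pag1, a membrane adaptor that holds Src kinases in check (2.70 ± 0.13), the adaptor Fyb (0.90 ± 0.10), Dgkz (0.80 ± 0.09) and Lcp2, which encodes the adaptor SLP-76 (0.73 ± 0.11). Fyb and Lcp2 are also known from myeloid cells.

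Of 26 other T cell genes, 14 fell and 4 rose (30.2% and 25.7% of all genes), with a median of -0.52. Gimap8, a GTPase of lymphocytes, changed by -2.42 ± 0.12, the interleukin 27 receptor Il27ra by -1.80 ± 0.17, the SLAM family receptor Ly9 by -1.80 ± 0.08 and the inhibitor of E proteins Id3 by -1.41 ± 0.10. The 4 that rose were the interleukin 6 receptor Il6ra (1.16 ± 0.16), the phosphatase Dusp2 (0.64 ± 0.11), Klf2 (0.41 ± 0.09) and the early activation marker Cd69 (0.41 ± 0.10).

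Of 24 other NK and cytotoxic genes, 13 fell and 3 rose (30.2% and 25.7% of all genes), with a median of -0.72. The lymphotactin gene Xcl1 read 894 and 1093 in PBS and 188 to 226 after LPS (-2.73 ± 0.16). The granzyme Gzmm changed by -2.25 ± 0.16 and the NK receptors Klra4 and Klre1 by -2.12 ± 0.11 and -2.06 ± 0.14. Klra genes are near-identical copies, so the Klra4 probe may also read others of them. The 3 that rose were Id2 (3.18 ± 0.13), Il18rap (2.15 ± 0.18) and Nfil3 (1.37 ± 0.11), of which Id2 and Nfil3 are also known from myeloid cells. Which cells of the sort carried the rises in this list and in the lists before it was not tested.

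Markers of other cell types that the sort could hold moved on the same arrays. All 9 tested B cell markers, all 11 of macrophages and all 6 of erythroid cells fell after LPS, with medians of -2.25, -2.04 and -2.21, and 7 of 8 endothelial markers fell (median -1.91). Of 11 neutrophil markers, 5 rose and 2 fell (median 0.21). Of 7 markers of plasmacytoid dendritic cells, 5 fell and 1 rose, and of 5 of monocytes, 2 rose and 2 fell. Among all genes tested, 30.2% fell and 25.7% rose. The summed intensity of the 30 T and NK cell genes went from 118449 to 126857 in PBS to 38168 to 39381 after LPS. Over the same arrays the 9 B cell markers went from 79151 to 81291 to 15264 to 15764, and the 11 neutrophil markers from 269308 to 279452 to 308701 to 320064. Among these 11, S100a8 and Ltf read 58140 to 65787 in PBS, near the highest intensity of 66399, which left them little room to rise. The part of the markers of other cells in the fall of the T and NK cell genes was not tested.

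**Figure D4:**
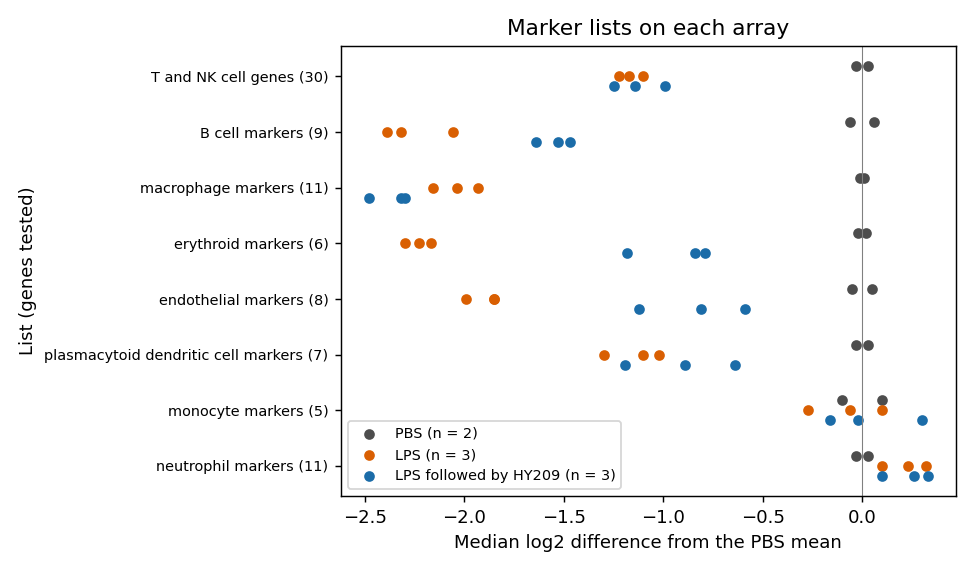
Median log2 difference from the PBS mean (x axis) on each array for the T and NK cell genes and for 7 lists of markers of other cells (y axis, genes tested in brackets), coloured by group. The points with HY209 (-1.25 to -0.99) overlap those with LPS alone (-1.22 to -1.10) for the T and NK cell genes, and lie to the right of them for the B cell, erythroid and endothelial lists.

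Setting LPS followed by HY209 against LPS without it asks what the bile salt changed in endotoxin-treated mice. Of the 30 tested genes, 1 rose, 0 fell and 29 did not pass the test (limma, adjusted p under 0.05). Over all genes 6.15% rose and 3.47% fell, so a call of 1 gene in 30 is near those shares. At an unadjusted p under 0.05, 6 were higher and 1 lower, against 13.5% and 12.4% of all genes. The log2 change was above 0 for 27 of the 30, against 47.2% of all genes, with a median of 0.17 and a range from -0.21 to 0.59.

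The gene that rose was Ets1, from 3957 to 4538 with LPS alone to 5439 to 7005 with HY209, and every HY209 array lay above every LPS array. The log2 change was 0.59 ± 0.11 (adjusted p = 0.0083), and the HY209 arrays stayed well below the 19825 and 22431 of PBS (-1.74 ± 0.12 against PBS). A dimmer probe of Ets1 (ILMN_2770739) read 138 to 142 with LPS and 151 to 165 with HY209, below the background threshold in both groups, and gave no measure of this change.

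For the genes that did not pass, the interval of the change is the measure of what these arrays leave room for. Cd3e changed by 0.09, with a 95% interval from -0.11 to 0.29, and Zap70 by 0.07, from -0.16 to 0.30. The highest upper limit among the 29 was that of Prf1 (0.32, from -0.02 to 0.66) and the lowest lower limit that of Cd96 (-0.21, from -0.40 to -0.02). Cd3g (0.32 ± 0.11, adjusted p = 0.089), Cd8b1 (0.29 ± 0.11, adjusted p = 0.12) and Ccr7 (0.22 ± 0.08, adjusted p = 0.12) had HY209 arrays that lay above all LPS arrays without passing the test. In all, the HY209 arrays lay above those with LPS alone for 7 genes and below them for 1, Cd96, against 14.5% and 14.7% of all genes.

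The arrays with HY209 differed among themselves in a way that most of these genes shared. Replicate 1 was the highest of the 3 for 21 of the 30 genes, against 32.9% of all genes tested, and replicate 2 the lowest for 23, against 39.9%. Thy1, at 5316, 3193 and 4553, and Nkg7, at 4847, 2793 and 3903, show that order. Replicate 2 was the highest for 6 genes, against 32.6% of all genes, namely Ets1, Il7r, Lef1, Gata3, Cd96 and Il2rb. The median log2 difference from PBS was -0.99, -1.25 and -1.14 on the 3 HY209 arrays, and -1.10, -1.22 and -1.17 on the 3 LPS arrays. Replicate 1 was also the highest and replicate 2 the lowest in the medians of the endothelial (-0.59, -1.12 and -0.81), erythroid (-0.79, -1.18 and -0.84), plasmacytoid dendritic cell (-0.64, -1.19 and -0.89) and macrophage markers (-2.30, -2.48 and -2.32). The medians of the B cell (-1.64, -1.53 and -1.47), neutrophil (0.10, 0.26 and 0.33) and monocyte markers (0.30, -0.02 and -0.16) had other orders, and the part of these markers was not tested.

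How many genes passed depended on replicate 2 of the HY209 group, which was the lowest of the 3 for 23 of the 30 genes. Leaving out the lowest array raises the HY209 mean of those genes. The calls gained this way thus follow in part from that order and are not further evidence. Without it, 8 of the 30 genes rose against LPS, while 7.54% of all genes did. The 7 further genes were Thy1 (0.50, adjusted p = 0.015), Cd8b1 (0.41, adjusted p = 0.017), Prf1 (0.52, adjusted p = 0.019), Cd27, Cd2, Bcl11b and Nkg7, with adjusted p-values up to 0.035. Without replicate 1, and likewise without replicate 3, 1 gene passed.

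**Figure D5:**
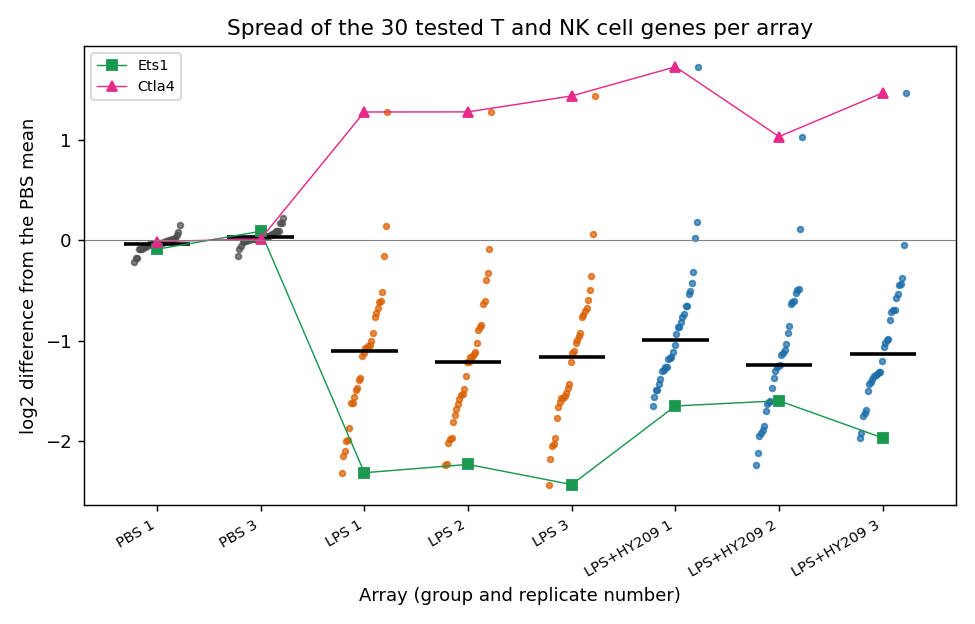
Log2 difference from the PBS mean (y axis) of each of the 30 tested genes on every array (x axis), coloured by group, with the median as a bar and Ets1 and Ctla4 joined by lines. Medians lie between -0.99 and -1.25 on the 6 arrays with LPS, and Ets1 is the gene that moves up with HY209 past the test.

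Markers of other cells also changed with HY209. Of 9 B cell markers 7 rose (median 0.65), of 6 erythroid markers 6 (median 0.84) and of 8 endothelial markers 6 (median 1.20), while 6 of 11 macrophage markers fell (median -0.35). The shares of all genes tested were 6.15% higher and 3.47% lower. None of the 11 neutrophil markers passed the test in limma. At an unadjusted p under 0.05, 0 were higher and 1 lower, against 13.5% and 12.4% of all genes. The B cell marker Cd79b, a chain of the B cell receptor, went from 4075 to 4418 with LPS to 6619 to 7612 with HY209. Its log2 change of 0.76 ± 0.09 was at the top of the range of that list, from 0.10 to 0.76. The 30 T and NK cell genes ranged from -0.21 to 0.59, with a median of 0.17. The difference between the lists was not tested. Ets1 is known from B cells and endothelium too, and the part of these markers in its rise was not tested.

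In the further lists, Gimap8 (0.52 ± 0.11), Ly9 (0.45 ± 0.08), Cd226, an activating receptor (0.41 ± 0.12), and Gimap7 (0.39 ± 0.08) led the 6 of 26 other T cell genes that rose with HY209. On the same arrays 7 of 9 B cell markers rose, and the part of B cells in the rises of these T cell genes was not tested. Without HY209 replicate 1 only 1 of these 26 rose, and Cd226 kept its call in 5 of 17 alternative fits (adjusted p up to 0.24). Lag3, an inhibitory receptor of T and NK cells, was the 1 that fell, from 669 to 707 with LPS to 434 to 534 with HY209 (-0.57 ± 0.10, adjusted p = 0.0049), and had read 1120 and 1100 in PBS. Of 24 T cell receptor signalling genes 0 rose and 1, Pag1, fell (-0.47 ± 0.11, adjusted p = 0.024). At an unadjusted p under 0.05, 1 was higher and 4 lower, against 13.5% and 12.4% of all genes. Among 24 other NK and cytotoxic genes, Klra4 rose (0.40 ± 0.10, adjusted p = 0.030) and the chemokine gene Ccl5 fell, from 9540 to 10227 to 6524 to 7434 (-0.52 ± 0.09, adjusted p = 0.0044). With 6.15% of all genes higher and 3.47% lower, a call of 1 gene in a list of 24 or 26 is near those shares. Pag1 kept its call in 12 and Klra4 in 9 of the 17 alternative fits, with adjusted p up to 0.076 and 0.13.

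The third comparison, LPS followed by HY209 against PBS, shares the PBS arrays with the first and the HY209 arrays with the second, so its values are given beside them and not as further evidence. Of the 30 genes, 27 were lower, 1 was higher and 2 did not pass the test, where 26.1% of all genes were lower and 21.6% higher. Against PBS, Thy1 changed by -1.82 ± 0.17 with HY209 and by -2.11 ± 0.17 with LPS alone. For Prf1 these values were -1.50 ± 0.17 and -1.82 ± 0.17, for Cd3e -1.44 ± 0.10 and -1.53 ± 0.10, and for Cd96 -1.38 ± 0.10 and -1.17 ± 0.10. Medians over the 30 genes were -1.14 and -1.16.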

How the data were processed

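The authors deposited intensity values on a linear scale for 8 arrays, with quantiles that differ by at most 0.0616% between the arrays and no value below 108.9, so they were quantile normalized and not background-subtracted. GenomeStudio 2011.1 and R 2.15.0 are named, per the submitters' processing notes, and other steps are not given in the sources used here. The 16 columns of another table carry names that match no sample and were not used.

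Background was corrected with normexp (offset 50), followed by quantile normalization and log2 (limma 3.58.1, R 4.3.3). Background had its mode at 148.4 and a log2 spread of 0.113, and the filter kept probes above 168.8 on at least 2 arrays. No array can be tied to a detection p-value here, so this bound was used. Of 25697 probes, 23978 had 1 gene symbol, 0 several and 1719 none. Symbols were checked by Entrez identifier for 23962 probes against RefSeq (GRCm38.p6), and 0 changed. The brightest probe of a gene was used.

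All 8 arrays entered 1 limma fit by group (two-sided tests, 5 residual and 6.59 prior degrees of freedom), with p-values adjusted over 10219 genes. The number of arrays limits the precision, with a median standard error of 0.10 to 0.11 on the log2 scale. With all arrays of a group at or below the threshold, a fold is a bound against the threshold on the corrected scale (6.66 on the log2 scale), as for Eomes. The 39 genes and all other lists were chosen with earlier results of these data known. Of the further lists, up to 4 genes past the test in each direction with the largest change are named, every gene where 5 or fewer passed, and examples of other cell types by brightness. Probes other than the brightest, the promoters printed, Lag3 beside PBS and Cd79b beside the range of its list were chosen after their values were seen. Alternatives were no background correction, an offset of 16, 75th percentile scaling, the filter left out or made stricter (above 178 on every array of at least 1 group), the mean of a gene's probes, the 2 groups compared alone, an intensity trend with a robust prior, a block for the replicate number, and leaving out each array. Promoter letters were counted in Python 3.11.15.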

Additional observations from a re-analysis of the deposited data

How the results depend on the processing

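Under 9 alternatives and the 8 fits that each left out 1 array, none of the 30 genes that passed the test, where it was still tested, lost its call or changed sign in any of the 3 comparisons. Among the 30 genes, the calls that were gained after LPS, and with HY209 against PBS, were those of Cd247. For LPS against PBS the fits without 1 array gave 26 to 28 genes lower and 1 higher, and for HY209 against PBS 26 to 28 and 1. For HY209 against LPS they gave 1 to 8 higher and 0 lower. The 8 came without HY209 replicate 2, the lowest of its group for most of the genes, and the cause of its lower values was not tested. With an intensity trend and a robust prior 3 genes rose with HY209, Ets1 beside Cd3g (0.32, adjusted p = 0.046) and Cd8b1 (0.29, adjusted p = 0.049). The share of all genes called higher in this comparison varied from 2.62% without HY209 replicate 1 to 8.39% with the stricter filter, beside 6.15%. Outside the 30 genes, the number of other T cell genes that rose with HY209 varied from 1 to 7, and Cd69 kept its call in 7 of 17 fits (adjusted p up to 0.10), Gimap8 and Gimap7 in 16 (up to 0.052), where HY209 replicate 1 was left out in the exception. Other NK and cytotoxic genes higher with HY209 numbered 0 to 3 and lower 1 to 3, and T cell receptor signalling genes lower 0 to 2, and with the replicate block 5 and not 3 NK and cytotoxic genes rose after LPS. Without either PBS array, the other stands alone and is assumed to vary like the other groups. The median log2 change over the genes lay between -1.35 and -1.02 after LPS and between 0.10 and 0.22 with HY209 against LPS. With no filter, 37 of the genes were tested and 28 fell after LPS, and the call gained there came from the 7 genes near background.

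The replicate numbers were checked for pairing. Over the 7 pairs of arrays that share a number, residual correlations ran from -0.19 to 0.30, and 2 exceeded 0.1. The residuals of the 2 PBS arrays are opposites by construction, so pairs with PBS cannot decide the question. Pairs of LPS and HY209 arrays gave 0.05, 0.30 and 0.28. As the design gives no pairing, the numbers were not taken as pairs. Of the 6 arrays with LPS, 5 correlated best with their own number in the other group, a hint from the data and not from the design. With the replicate number as a block, 27 genes fell and 1 rose after LPS, 1 rose with HY209 against LPS, and 27 were lower and 1 higher with HY209 against PBS. Signal over background limits what can be measured for Eomes, which lay below the threshold on all 6 arrays with LPS, and for Txk, Gata3 and Lef1, each of which lay below it on at least 1 of the LPS arrays.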
